A study of Mus musculus with 8 samples.

Results

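The comparison was between parthenogenetic mouse embryonic stem (ES) cells labelled as overexpressing Igf2 and the parthenogenetic ES cells from which, by their labels, they were modified. It was chosen by sample title and rests on 4 of the 8 arrays of the series, 2 Igf2-labelled and 2 parthenogenetic. The other arrays were 2 of parthenogenetic ES cells whose labels give lower H19 expression, which entered the same fit, and 2 of normal ES cells, which were normalized together with the rest but not fitted. All 4 groups came from B6D2F1 hybrid mice. The parthenogenetic cells were labelled as of oocyte origin and the normal cells as of embryo origin, and the Igf2-labelled and H19-labelled cells were genetically modified derivatives of parthenogenetic ES cells. The sources used here give no construct, promoter, number of clones or culture conditions.

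A parthenogenetic embryo arises from an activated oocyte, so its ES cells carry maternal genomes only. Imprinted genes are expressed mainly from one parental allele according to DNA methylation set in the germ line: paternally expressed genes are usually low and maternally expressed genes usually high in such cells. Igf2, a fetal growth factor, and H19, a noncoding RNA, lie side by side and are reciprocally imprinted. In culture ES cells also move between a naive and a primed state, and WNT, NODAL and FGF signals act on that balance.

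RNA was measured on Illumina bead arrays, with a median intensity of 172.1 to 196.7 units per array and 47.1% to 49.5% of probes detected. Values below are log2 normalized intensities, differences are Igf2-labelled minus parthenogenetic on that scale, and adjusted p-values are from limma with Benjamini-Hochberg adjustment over all probes tested and a threshold of 0.05. The 2 arrays per group limit the precision, and because the labels do not say that replicates were separate cultures, the p-values measure only the spread between these arrays. Groups of 2 arrays can separate without a call: Cd81 (adjusted p 0.407) and Ccnd1 (adjusted p 0.122) did not overlap either. The share of all genes that separate is not given here. For genes named as the largest rises and falls, on chromosome 6 and off it, separation was required by their choice. Duplicate arrays correlated at 0.995 (Igf2-labelled), 0.996 (H19-labelled) and 0.996 (parthenogenetic), with 19 to 21 probes differing by more than 1, against 0.961 and 992 probes for the normal arrays, so the normal levels are given as descriptions. Of 12640 probes tested, 1295 (10.2%) passed the threshold, 728 (5.76%) higher and 567 (4.49%) lower in Igf2-labelled cells. Of 8640 genes 892 (10.3%) passed, of which 496 (5.74%) rose and 396 (4.58%) fell. The probe count was 292 and 328 without parthenogenetic array 1 or 2, 437 and 295 without Igf2-labelled array 1 or 2, 970 without either H19-labelled array, and 77 when the normal arrays entered the fit. Of 113 genes past the threshold that are named here, 54 kept their call when any 1 array of the fit was left out and 59 lost it without at least 1. Each of 9 general ES cell markers was detected on all 4 arrays. Of 28 fibroblast genes tested, all were detected on all 4 arrays, 27 were lower in the Igf2-labelled cells (median difference -0.24) and 3 fell past the threshold. Their summed linear level was 192615 and 194821 on the Igf2-labelled arrays, against 223188 and 223728 on the parthenogenetic arrays.

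Igf2 itself did not pass the test between the Igf2-labelled and the parthenogenetic arrays. Its level was 15.61 and 15.49 on the Igf2-labelled arrays, against 15.58 and 15.62 on the parthenogenetic arrays. The groups overlapped, with a difference of -0.05 (SE 0.08, adjusted p 0.717). Before normalization the Igf2 probe read 50496 and 42088 intensity units on the Igf2-labelled arrays, against 48301 and 50505 units on the parthenogenetic arrays. The brightest probe of those arrays reached 65152 to 67905 units. On the H19-labelled arrays the Igf2 level was 14.98 and 14.94, which was lower than on the Igf2-labelled arrays by 0.59 (SE 0.08, adjusted p 0.00409). Fibroblast genes were lower there too: 25 of the 28 were higher past the threshold on the Igf2-labelled than on the H19-labelled arrays, with a median difference of 0.62. Over all genes, 13.3% were higher past the threshold in that comparison. The summed level of the fibroblast genes was 124556 and 126289 on the H19-labelled arrays. Against the parthenogenetic arrays 27 of the 28 were lower on the Igf2-labelled arrays, while Igf2 did not pass. On the normal arrays Igf2 read 15.62 and 13.63 and the collagen gene Col1a1 read 12.42 and 10.68. The part of fibroblast RNA in the Igf2 level was not tested, and the labels do not give whether feeder cells were present. The sources used here do not give which part of the transcript the probe binds, and H19 had no probe with that name in the annotation used. The label of the Igf2-labelled arrays was thus not borne out by this probe, and they are called Igf2-labelled throughout.

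Of 21 genes of insulin-like growth factor signalling tested, 1 rose and 3 fell (4.76% and 14.3%, beside 5.74% and 4.58% over all genes). The median difference was -0.09 beside -0.01 over all genes. Igfbp2, a secreted binding protein that sequesters the growth factor, had levels of 12.12 and 12.02 in Igf2-labelled cells, against 12.78 and 12.67 in parthenogenetic cells. Neither Igf2-labelled array reached the parthenogenetic levels (difference -0.66, SE 0.10, adjusted p 0.0132). Igfbp3, another binding protein, fell by 0.34, and Grb2, an adaptor between receptor tyrosine kinases and Ras, fell by 0.38. Igf2bp3, an RNA-binding protein that binds Igf2 transcripts and lies on chromosome 6, rose by 0.64 (adjusted p 0.0068). Igfbp7 (-0.31, adjusted p 0.155) and Shc1 (-0.06, adjusted p 0.623) did not pass. The calls of Igfbp3 and Grb2 were lost without any 1 of the 6 arrays, that of Igfbp2 without any 1 Igf2-labelled or parthenogenetic array, and that of Igf2bp3 without parthenogenetic array 1 (highest adjusted p 0.128, 0.148, 0.0823 and 0.0521).

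Several paternally expressed imprinted genes were higher in the Igf2-labelled cells. Of 13 on this list that were tested, 7 rose and 1 fell (53.8% and 7.69%, beside 5.74% and 4.58% over all genes). Chromosome 6, where 42.1% of genes rose, held 2 of the rises. The median difference was 0.38 beside -0.01 over all genes. Only 9 of the 13 were detected on all 4 arrays, and among genes detected on every array of both groups the median was -0.02, with 4 of 9 higher and 1 lower past the threshold. Mest, an imprinted gene of the hydrolase fold on chromosome 6, had levels of 8.95 and 8.89 on the Igf2-labelled arrays, against 6.29 and 6.35 on the parthenogenetic arrays, where it was not detected. Its level on the Igf2-labelled arrays was therefore at least 5.24-fold higher (adjusted p 1.79e-04). Its other probes, also not detected on the parthenogenetic arrays, were at least 2.52-fold and 1.28-fold higher (adjusted p 0.00146 and 0.00279). A fold written as "at least" sets the brighter group against the lowest level detected on the arrays of the dim group. A gene not detected on both arrays of a group entered the test only through the other group, where it is high. The adjusted p of such a gene, here and below, is therefore not separate from how it was kept.

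Snrpn, which encodes a small nuclear ribonucleoprotein of the Prader-Willi region, had levels of 11.44 and 11.42 in Igf2-labelled cells, against 9.16 and 9.24 in parthenogenetic cells. It rose by 2.23 (SE 0.09, adjusted p 2.00e-04). The other Snrpn probe was not detected in parthenogenetic cells and was at least 1.36-fold higher (adjusted p 0.00101). Peg3, a zinc finger protein gene, had 6.75 and 6.80 in Igf2-labelled cells, against 5.35 and 5.42 in parthenogenetic cells, where it was not detected. That made it at least 1.19-fold higher (adjusted p 0.00154). Peg10, a gene derived from a retrotransposon and placed on chromosome 6, had 7.14 and 7.65 in Igf2-labelled cells, against 6.24 and 5.88 in parthenogenetic cells without detection, at least 1.83-fold higher (adjusted p 0.0158). The remaining rises were of Ddc (0.84, adjusted p 0.00379), the enzyme that makes dopamine and serotonin, Slc38a4 (0.80, adjusted p 0.0218), an amino acid transporter, and Impact (0.38, adjusted p 0.0258), a regulator of translation. Inpp5f, a phosphoinositide phosphatase with an imprinted transcript, fell by 0.45 (adjusted p 0.0199). Ndn (-0.24, adjusted p 0.0914) and Dlk1 (-0.02, adjusted p 0.92) did not pass. The call of Impact was lost without any 1 of the 6 arrays, that of Inpp5f without any 1 Igf2-labelled or parthenogenetic array, and those of Peg10 and Slc38a4 without parthenogenetic array 2 or Igf2-labelled array 2, as well as without parthenogenetic array 1 for Peg10 and Igf2-labelled array 1 for Slc38a4 (highest adjusted p 0.125, 0.105, 0.0855 and 0.0978).

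The promoters of Mest and Peg3 are shown because imprinted expression is tied to methylation of CpG pairs at such starts. DNA methylation was not measured. The RefSeq windows on GRCm38.p6 each hold 300 bases around an annotated transcription start, reaching into the first exon. Mest is at chr6:30737800-30738099 on the plus strand (of 3 entries, the one with the most CpG pairs), and Peg3 is at chr7:6730370-6730669 on the minus strand. Capitals mark CpG pairs, 17 in Mest and 13 in Peg3. The median over 32851 such windows was 7, and 31.4% of the windows had as many as Mest or more and 37.9% as many as Peg3 or more.
Mest: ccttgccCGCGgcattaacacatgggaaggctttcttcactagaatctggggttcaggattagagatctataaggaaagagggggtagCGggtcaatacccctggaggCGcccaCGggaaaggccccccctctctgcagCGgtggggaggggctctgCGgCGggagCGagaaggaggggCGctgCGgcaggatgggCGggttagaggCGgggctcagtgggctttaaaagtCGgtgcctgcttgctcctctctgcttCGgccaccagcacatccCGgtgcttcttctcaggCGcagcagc
Peg3: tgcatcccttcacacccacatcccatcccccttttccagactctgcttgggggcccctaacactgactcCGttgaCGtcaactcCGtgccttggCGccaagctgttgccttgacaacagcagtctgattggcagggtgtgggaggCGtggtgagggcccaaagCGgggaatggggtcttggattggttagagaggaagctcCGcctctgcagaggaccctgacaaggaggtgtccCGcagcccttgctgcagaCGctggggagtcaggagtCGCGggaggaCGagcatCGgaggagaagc

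Mest, Snrpn, Peg3 and Peg10 were also higher than in the H19-labelled cells, a difference tested in the same fit. In it 1913 of 8585 genes (22.3%) passed, 13.3% higher and 8.96% lower in Igf2-labelled cells, and 21.5% of probes. Every comparison with the H19-labelled cells uses the same 2 Igf2-labelled arrays, so it is not an independent check of a rise. Mest and Peg3 entered either test only through the Igf2-labelled arrays, where they are high. Snrpn was 2.44 higher in Igf2-labelled than in H19-labelled cells (SE 0.09, adjusted p 3.61e-04), and Mest, undetected on the H19-labelled arrays, was at least 4.97-fold higher (adjusted p 3.55e-04). Peg3 was likewise undetected on the H19-labelled arrays and at least 1.13-fold higher in Igf2-labelled cells (adjusted p 0.00151), and Peg10 was higher by 0.93 (adjusted p 0.0269). Impact was 0.61 higher in Igf2-labelled than in H19-labelled cells (adjusted p 0.00288). Ddc (-0.24, adjusted p 0.0843) and Slc38a4 (-0.14, adjusted p 0.52) did not pass there. The normal ES arrays, which carry a paternal genome, read 10.69 and 11.75 for Mest, 13.14 and 13.38 for Snrpn, 8.89 and 9.29 for Peg3, and 8.07 and 7.73 for Peg10. For each of these 4 genes both normal arrays lay above both Igf2-labelled arrays.

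Of 21 maternally expressed imprinted genes tested, 1 rose and 4 fell (4.76% and 19%, beside 5.74% and 4.58% over all genes). The median difference was -0.15. Phlda2, which restrains placental growth, had levels of 11.42 and 11.35 in Igf2-labelled cells, against 12.84 and 12.80 in parthenogenetic cells. Cdkn1c, an inhibitor of cyclin-dependent kinases from the same imprinted cluster, had 10.50 and 10.34 in Igf2-labelled cells, against 11.38 and 11.44 in parthenogenetic cells. Phlda2 and Cdkn1c fell by 1.43 (SE 0.07, adjusted p 4.42e-04) and by 0.99 (SE 0.09, adjusted p 0.0027). Dhcr7, which catalyses the last step of cholesterol synthesis, fell by 0.50, and Atp10a, a lipid flippase, fell by 0.45. Ppp1r9a, a neurabin on chromosome 6, rose by 0.38. Grb10, an adaptor that dampens insulin-like growth factor signalling, missed the threshold (-0.31, adjusted p 0.068), as did Cd81 (-0.10, adjusted p 0.407). The calls of Dhcr7 and Ppp1r9a were lost without any 1 Igf2-labelled or parthenogenetic array, and that of Atp10a without any array of the fit other than Igf2-labelled array 1 (highest adjusted p 0.077, 0.111 and 0.141). Phlda2 did not differ past the threshold between Igf2-labelled and H19-labelled cells (-0.20, adjusted p 0.0974), whereas Cdkn1c was 0.57 higher in Igf2-labelled cells (adjusted p 0.0065).

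**Figure D1:**
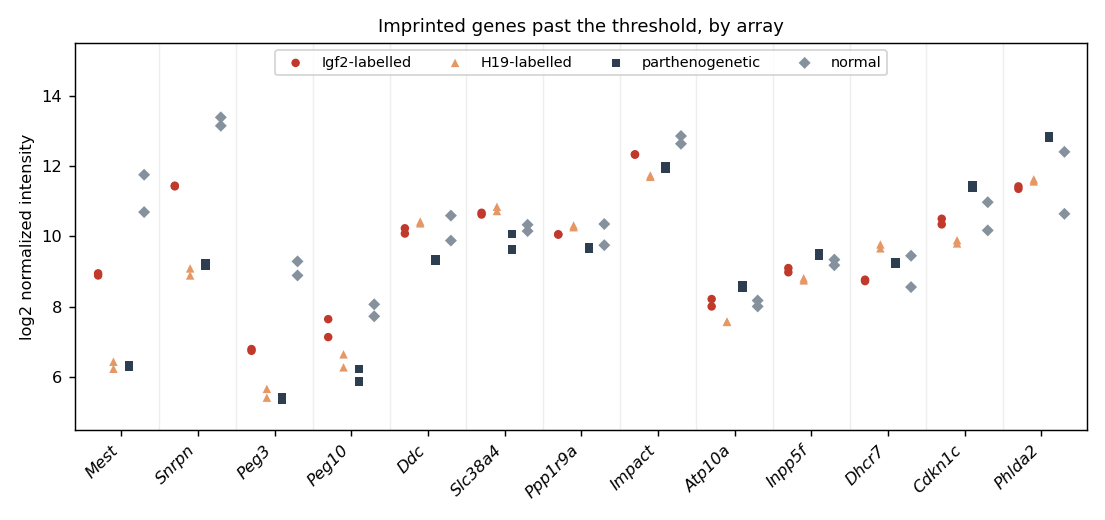
Log2 normalized intensity of the imprinted genes past the threshold, 1 point per array, for 2 arrays each of the Igf2-labelled, H19-labelled, parthenogenetic and normal groups. Mest, Snrpn, Peg3 and Peg10 stand higher on both Igf2-labelled arrays than on the H19-labelled and parthenogenetic arrays and below both normal arrays, while Cdkn1c and Phlda2 stand lower on the Igf2-labelled than on the parthenogenetic arrays.

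All 3 measured Rhox genes, reproductive homeobox genes of the X chromosome, rose past the threshold in the Igf2-labelled cells. The share that rose past it was 5.74% over all genes and 7.09% over X chromosome genes. Only 3 of 15 listed Rhox genes were on the array by name, and Rhox6 and Rhox9 were given with the comparison. Rhox genes encode homeobox transcription factors expressed in germ cells, gonads and placenta. Rhox9 had levels of 10.83 and 10.64 in Igf2-labelled cells, against 7.93 and 8.15 in parthenogenetic cells. Rhox6 had 9.13 and 9.25 in Igf2-labelled cells, against 6.42 and 6.59 in parthenogenetic cells, where it was detected on 1 of 2 arrays. It therefore entered the test only through the Igf2-labelled arrays, where it is high. Rhox5 had 12.90 and 12.83 in Igf2-labelled cells, against 11.85 and 11.99 in parthenogenetic cells. Rhox9, Rhox6 and Rhox5 rose by 2.70 (SE 0.12, adjusted p 2.77e-04), 2.68 (SE 0.10, adjusted p 1.79e-04) and 0.95 (SE 0.08, adjusted p 0.0027). Rhox6 and Rhox9 are close relatives, and whether either probe also binds the transcript of the other was not tested. They were also higher in Igf2-labelled than in H19-labelled cells, by 1.18 for Rhox9 (adjusted p 0.00207), 0.85 for Rhox6 (adjusted p 0.00265) and 0.48 for Rhox5 (adjusted p 0.0102).

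Further genes with germ line expression were higher. Xlr4a, of an X-linked multicopy family, had 9.17 and 9.33 in Igf2-labelled cells, against 7.55 and 7.38 in parthenogenetic cells, a rise of 1.78 (SE 0.10, adjusted p 7.58e-04). Tex13b, a testis-expressed X-linked gene, had 9.81 and 9.79 in Igf2-labelled cells, against 8.02 and 8.27 in parthenogenetic cells, and its 2 probes rose by 1.66 and 1.60. Of 8 germ cell genes tested, 3 rose and 1 fell (37.5% and 12.5%, beside 5.74% and 4.58% over all genes), with a median of 0.39. Dazl, an RNA-binding protein needed for germ cell formation, rose by 1.20 (adjusted p 9.77e-04), Asz1, which acts in piRNA-mediated silencing and lies on chromosome 6, by 0.81 and the meiotic cohesin gene Smc1b by 0.43. Rec8, another meiotic cohesin subunit, fell by 1.12 (adjusted p 0.0054). Of 7 genes of the oocyte and early cleavage embryo, 3 rose and 1 fell: Khdc3 (1.15, adjusted p 9.08e-04) and Ooep (0.32), which belong to the subcortical maternal complex, and Nlrp14 (0.64) rose, while Zscan4c, a marker of the rare ES cells that resemble the cleavage embryo, fell by 0.87. The calls of Smc1b and Ooep were lost without any 1 of the 6 arrays, that of Nlrp14 without either Igf2-labelled array or parthenogenetic array 1, and that of Zscan4c without Igf2-labelled array 2 (highest adjusted p 0.164, 0.173, 0.0789 and 0.0508).

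Against the H19-labelled cells most of these genes ran the other way. Igf2-labelled cells were lower than H19-labelled cells by 0.68 for Xlr4a (adjusted p 0.00641), 0.38 for Tex13b (adjusted p 0.0377), 0.95 for Dazl (adjusted p 0.00151), 0.83 for Asz1 (adjusted p 0.00237), 0.69 for Khdc3 (adjusted p 0.00193) and 1.09 for Nlrp14 (adjusted p 0.00177). The Rhox genes, higher in Igf2-labelled cells, were the exception among the genes named above that passed.

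Of 23 genes of WNT signalling tested, 9 fell and 1 rose (39.1% and 4.35%, beside 4.58% and 5.74% over all genes). The median difference was -0.13. Sp5, a zinc finger factor switched on by WNT signals, had levels of 7.12 and 7.24 in Igf2-labelled cells, against 9.69 and 9.54 in parthenogenetic cells. Wnt8a, a WNT ligand of the early embryo, had 5.48 and 5.57 in Igf2-labelled cells, where it was not detected, against 7.58 and 7.55 in parthenogenetic cells. Sp5 fell by 2.43 (SE 0.12, adjusted p 4.00e-04), and Wnt8a was at least 2.00-fold lower (adjusted p 1.79e-04). Its other probe, also not detected in Igf2-labelled cells, was at least 1.78-fold lower (adjusted p 1.79e-04). Both Wnt8a probes entered the test only through the parthenogenetic arrays, where they are high.

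Among genes known as WNT targets, Tnfrsf19, a receptor of the tumour necrosis factor family, had 7.27 and 7.08 in Igf2-labelled cells, against 8.83 and 9.0 in parthenogenetic cells, and fell by 1.74 (SE 0.10, adjusted p 8.71e-04). Notum, a secreted enzyme that inactivates WNT ligands, had 7.99 and 8.19 in Igf2-labelled cells, against 9.69 and 9.43 in parthenogenetic cells, and fell by 1.47 (SE 0.11, adjusted p 0.0019). Axin2, a scaffold of the complex that destroys beta-catenin, had 7.90 on both Igf2-labelled arrays, against 8.87 and 9.11 on the parthenogenetic arrays, and fell by 1.09 (SE 0.10, adjusted p 0.00279). In each of the 3 the groups did not overlap, which the choice of Tnfrsf19 and Notum by size of fall required. Lef1, a DNA-binding partner of beta-catenin, fell by 1.08, Cdx1, a homeobox factor, by 1.02, Myc by 0.97 and the receptor Fzd7 by 0.39. Myc was not detected on all 4 arrays, so the size of its fall is uncertain. Tcf7l1, a repressor of WNT targets in ES cells that lies on chromosome 6, rose by 0.56 (adjusted p 0.00919). Beta-catenin itself (Ctnnb1, 0.02, adjusted p 0.886), Porcn, which lipidates WNT ligands (-0.08, adjusted p 0.606), and Ccnd1 (-0.21, adjusted p 0.122) did not pass. The calls of Myc and Fzd7 were lost without any 1 Igf2-labelled or parthenogenetic array, and that of Tcf7l1 without either parthenogenetic array or Igf2-labelled array 2 (highest adjusted p 0.111, 0.108 and 0.0626).

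Promoter windows of 3 of the fallen genes are shown for the letters CTTTGA, the core of the site bound by LEF1 and related factors, searched on both strands. Of the 9 fallen genes, 5 had RefSeq windows, 9 in all, of which 3 held the core, while 16% of all 32851 windows held it and 1.73% held it more than once. The windows, each of 300 bases on GRCm38.p6, are Sp5 at chr2:70474673-70474972 on the plus strand with 2 matches, Tnfrsf19 at chr14:61037938-61038237 on the minus strand with 1 match on the opposite strand (the better matching of 2 entries), and Axin2 at chr11:108920099-108920398 on the plus strand with 0. Capitals mark the matches.
Sp5: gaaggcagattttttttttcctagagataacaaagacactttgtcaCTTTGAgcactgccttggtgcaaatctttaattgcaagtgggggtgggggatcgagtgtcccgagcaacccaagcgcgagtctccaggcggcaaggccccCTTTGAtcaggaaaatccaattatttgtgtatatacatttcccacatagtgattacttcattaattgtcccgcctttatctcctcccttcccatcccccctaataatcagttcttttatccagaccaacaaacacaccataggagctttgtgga
Tnfrsf19: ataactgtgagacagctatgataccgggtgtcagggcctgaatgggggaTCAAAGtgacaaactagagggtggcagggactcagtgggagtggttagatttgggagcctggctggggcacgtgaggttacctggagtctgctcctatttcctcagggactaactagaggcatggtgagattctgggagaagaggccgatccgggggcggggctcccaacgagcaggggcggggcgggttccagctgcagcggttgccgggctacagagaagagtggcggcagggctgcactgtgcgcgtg
Axin2: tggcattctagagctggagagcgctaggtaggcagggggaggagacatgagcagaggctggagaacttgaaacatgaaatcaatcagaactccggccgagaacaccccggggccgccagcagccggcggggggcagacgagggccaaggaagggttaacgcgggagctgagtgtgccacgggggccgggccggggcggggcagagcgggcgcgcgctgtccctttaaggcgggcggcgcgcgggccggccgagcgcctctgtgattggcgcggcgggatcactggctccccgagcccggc

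Set against the H19-labelled cells, the WNT genes differed among themselves. Sp5 was 0.73 higher in Igf2-labelled than in H19-labelled cells (adjusted p 0.00919), and Notum was 0.49 lower (adjusted p 0.0286). Lef1 and Cdx1 were lower by 0.62 (adjusted p 0.0157) and by 0.51 (adjusted p 0.0121). Tnfrsf19 (0.01, SE 0.10, adjusted p 0.964) and Axin2 (0.07, SE 0.10, adjusted p 0.645) did not pass. Wnt8a was not detected on the Igf2-labelled or H19-labelled arrays.

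**Figure D2:**
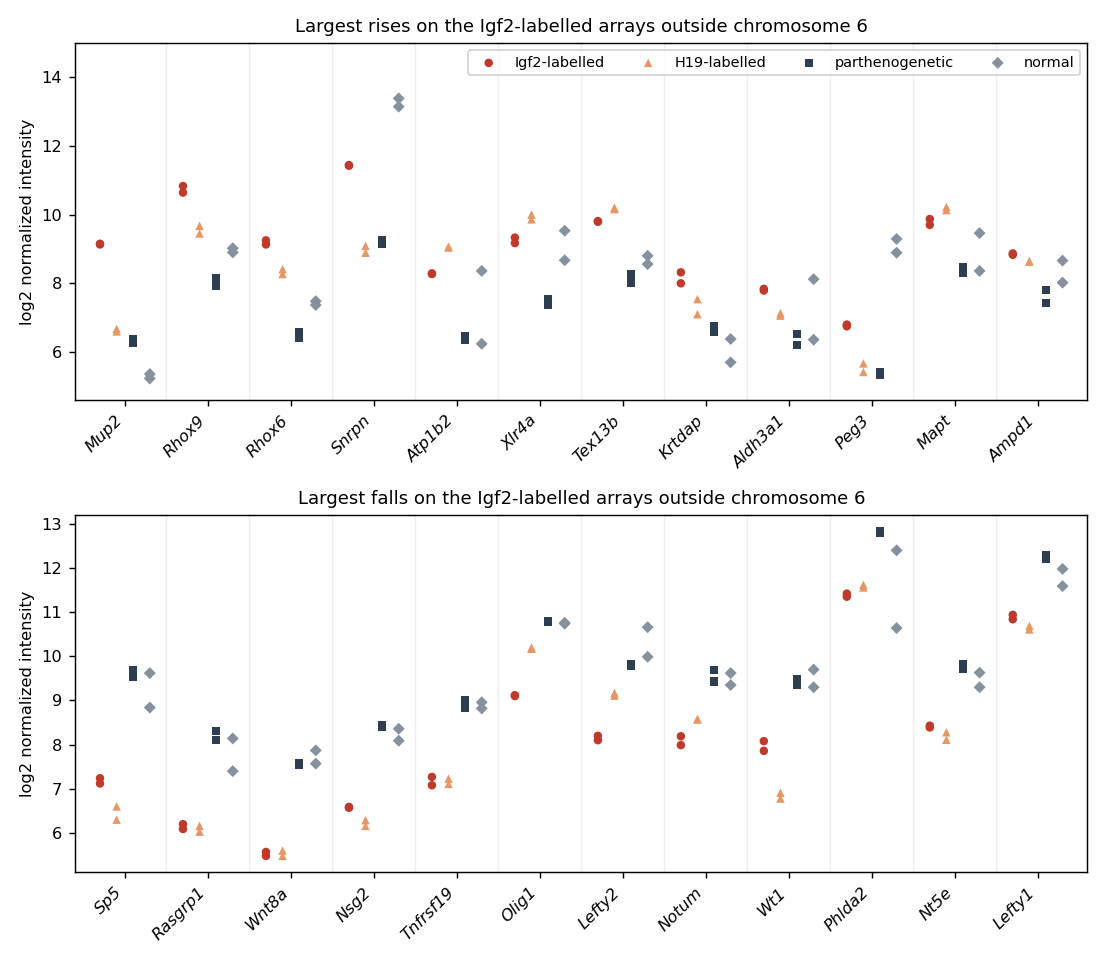
Log2 normalized intensity of the 12 largest measured rises (top) and the 12 largest measured falls (bottom) outside chromosome 6, 1 point per array, for 2 arrays each of the Igf2-labelled, H19-labelled, parthenogenetic and normal groups. Both Igf2-labelled points lie above both parthenogenetic points in the top panel and below them in the bottom panel, as the choice of these genes requires. The H19-labelled points lie near the parthenogenetic ones for Mup2, Snrpn and Peg3 and near the Igf2-labelled ones for Wnt8a, Rasgrp1 and Tnfrsf19.

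Within the NODAL pathway the genes Lefty1 and Lefty2 fell. Lefty2 had levels of 8.10 and 8.20 in Igf2-labelled cells, against 9.83 and 9.78 in parthenogenetic cells. Lefty1 had 10.84 and 10.94 in Igf2-labelled cells, against 12.21 and 12.29 in parthenogenetic cells. Both encode secreted antagonists that NODAL signals themselves induce, and they fell by 1.65 (SE 0.08, adjusted p 2.77e-04) and by 1.36 (SE 0.08, adjusted p 8.18e-04). Of 16 genes of the pathway tested, these 2 fell and 1 rose, Gdf3, a ligand on chromosome 6 (0.47, adjusted p 0.0165), and the median was -0.06. The shares were 12.5% lower and 6.25% higher, beside 4.58% and 5.74% over all genes. The coreceptor Tdgf1 (-0.25, adjusted p 0.485), the subunit gene Inhba (0.28, adjusted p 0.119) and the signal transducer Smad4 (-0.03, adjusted p 0.812) did not pass. The call of Gdf3 was lost without any 1 Igf2-labelled or parthenogenetic array (highest adjusted p 0.0853). Lefty2 was 0.99 lower in Igf2-labelled than in H19-labelled cells (adjusted p 0.00151), and Lefty1 did not pass there (0.24, adjusted p 0.0804).

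Of 16 genes of FGF and ERK signalling tested, 2 rose and 4 fell (12.5% and 25%, beside 5.74% and 4.58% over all genes). The median was -0.16. Etv5, an ETS factor induced by FGF signals, had 10.55 and 10.66 in Igf2-labelled cells, against 11.79 and 11.51 in parthenogenetic cells, and fell by 1.05 (SE 0.11, adjusted p 0.00447). Its relative Etv4 instead rose by 0.67 (adjusted p 0.0223). The ligand Fgf4 rose by 0.69 (adjusted p 0.0194), while the ligands Fgf15 and Fgf17 fell by 0.88 and 0.83 and the immediate early gene Fos fell by 0.65. Fgf15 was not detected on all 4 arrays, so the size of its fall is uncertain. The second Fgf17 probe was not detected in Igf2-labelled cells and missed the threshold (adjusted p 0.0855). Egr1 (-0.30, adjusted p 0.0798) and the phosphatase gene Dusp6 (0.05, adjusted p 0.776) did not pass. Calls were lost without parthenogenetic array 1 for Etv4, Fgf4, Fgf15 and Fos, without parthenogenetic array 2 for Fgf15, and without either Igf2-labelled array for Etv4 and Fgf4 (highest adjusted p 0.0998, 0.0972, 0.0823 and 0.0564). Of 12 genes of BMP signalling, 1 rose (8.33%, near the 5.74% over all genes). It was the inhibitory Smad6 (0.58, adjusted p 0.0272), a call lost without any 1 Igf2-labelled or parthenogenetic array (highest adjusted p 0.127).

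Markers of the primed epiblast were lower in the Igf2-labelled than in the parthenogenetic cells. Of 12 tested, 7 fell and 0 rose (58.3% and 0%, beside 4.58% and 5.74% over all genes). The median was -0.62 beside -0.01 over all genes, and 11 had a negative difference. Only 10 of the 12 were detected on all 4 arrays, and Wnt8a and Fgf15 were not. Pou3f1, a POU factor of the early neural and epiblast lineage, had levels of 10.13 and 9.90 in Igf2-labelled cells, against 11.40 and 11.26 in parthenogenetic cells. The Igf2-labelled arrays were both lower (difference -1.31, SE 0.10, adjusted p 0.00196). Wnt8a and Lef1, also WNT genes, Fgf15, Krt18 (-0.73), Sall2 (-0.71) and the de novo DNA methyltransferase gene Dnmt3b (-0.52) made up the other falls. Otx2, a homeobox factor of the primed state, did not pass, with 10.06 and 10.21 in Igf2-labelled cells, against 10.31 and 10.20 in parthenogenetic cells (difference -0.12, adjusted p 0.431). Tead2 (0.29, adjusted p 0.0678) and Zic2 (-0.09, adjusted p 0.871) also missed the threshold. For 11 genes of the list also tested against H19-labelled cells, the median difference was 0.18. There 5 of them passed, beside 22.3% of all genes in that comparison. Dnmt3b (0.37, adjusted p 0.0146) and Krt18 (0.61, adjusted p 0.0465) were higher in Igf2-labelled cells. Lef1, Fgf15 (-0.57, adjusted p 0.0309) and Otx2 (-0.94, adjusted p 0.00177) were lower. Summed linear levels of the list were 16639 and 16308 for H19-labelled cells and 16969 and 17443 for Igf2-labelled cells. Parthenogenetic cells had 22594 and 22716. Of 4 genes of the primitive streak and mesoderm, Sp5, Cdx1 and Fgf17 fell (75%, beside 4.58% over all genes), each also on a list above. Eomes did not pass (-0.18, adjusted p 0.385). Only these 4 of 18 listed genes were tested, and Sp5 was given with the comparison. Calls were lost without either parthenogenetic array for Fgf15, without any 1 Igf2-labelled or parthenogenetic array for Krt18 and Dnmt3b, and without parthenogenetic array 1 or either Igf2-labelled array for Sall2 (highest adjusted p 0.0823, 0.191, 0.0633 and 0.0706).

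Of 15 naive pluripotency genes, 5 rose and 2 fell (33.3% and 13.3%, beside 5.74% and 4.58% over all genes), with a median of 0.20. Chromosome 6, where 42.1% of genes rose, held 2 of these rises. Dppa3, a maternal factor that guards methylation marks and lies on chromosome 6, had 9.70 and 9.51 in Igf2-labelled cells, against 8.83 and 8.68 in parthenogenetic cells, and rose by 0.86 (SE 0.10, adjusted p 0.00642). Tcl1, a coactivator of AKT kinase, rose by 0.74, Tbx3, a T-box factor, by 0.72, Fgf4 by 0.69 and the core factor gene Nanog, also on chromosome 6, by 0.41. Gbx2, a homeobox gene counted here among the naive factors, had 11.54 and 11.47 in Igf2-labelled cells, against 12.81 and 12.74 in parthenogenetic cells, and fell by 1.27 (SE 0.07, adjusted p 7.60e-04). Klf2 fell by 0.36. Esrrb (0.26, adjusted p 0.0759), Klf4 (0.14, adjusted p 0.349) and Klf5 (0.16, adjusted p 0.196) did not pass. Of 19 genes of general pluripotency, 5 rose (26.3%) and 0 fell, with a median of 0.08: Fbxo15 (0.80, adjusted p 0.00487), Eras (0.56), Gdf3, Jam2 (0.38) and Dnmt3l (0.37). The calls of Nanog, Klf2, Jam2 and Dnmt3l were lost without any 1 of the 6 arrays, those of Eras and Gdf3 without any 1 Igf2-labelled or parthenogenetic array, and that of Fgf4 without parthenogenetic array 1 or either Igf2-labelled array (highest adjusted p 0.134, 0.135, 0.132, 0.159, 0.0751, 0.0853 and 0.0972). Dppa3 was 1.01 higher in Igf2-labelled than in H19-labelled cells (adjusted p 0.00188), and Tbx3 (0.00, adjusted p 0.971) and Nanog (-0.09, adjusted p 0.454) did not pass there. In bulk RNA, fewer cells of a state and less RNA per cell cannot be told apart.

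**Figure D3:**
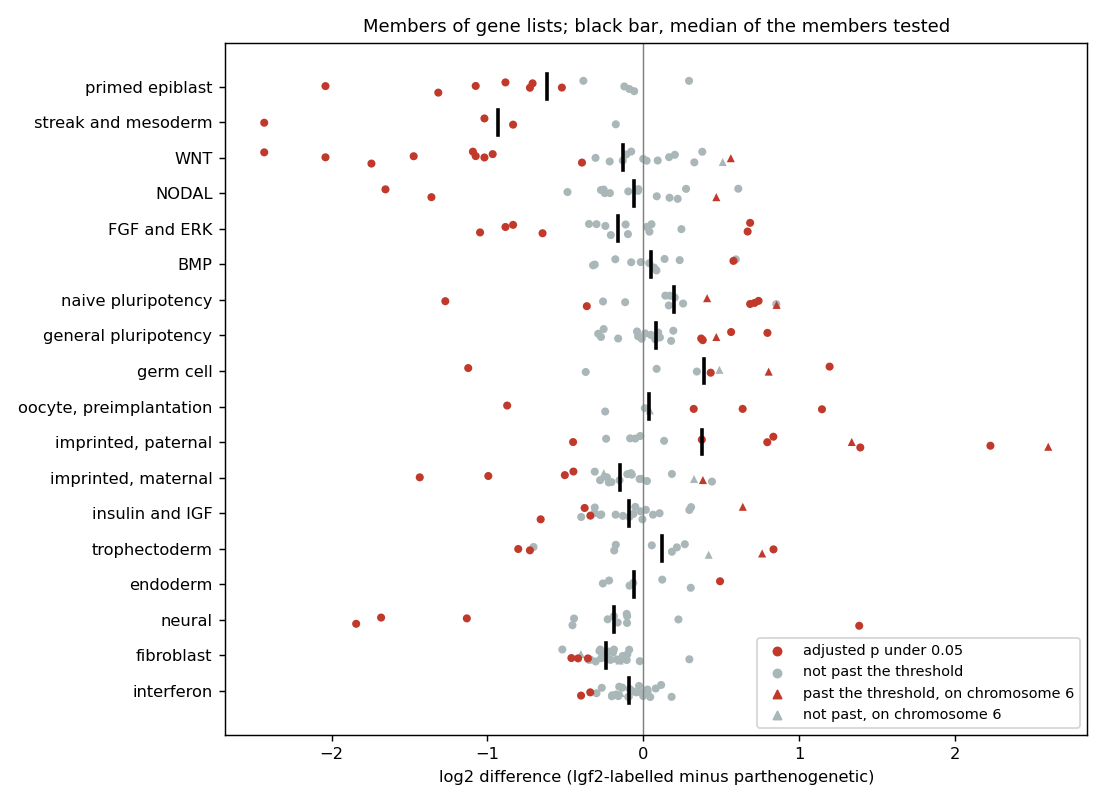
Difference between Igf2-labelled and parthenogenetic arrays on the log2 scale for each tested member of 18 gene lists, 1 point per gene, with the median of the list as a black bar. Points past the threshold are red, and triangles are genes of chromosome 6. The primed epiblast list has its 7 red points below 0, and 7 of the 8 red points of the paternally expressed list are above 0.

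Mup2, a major urinary protein that carries pheromones, was also among the genes with the 12 largest measured rises outside chromosome 6. It had levels of 9.15 and 9.13 in Igf2-labelled cells, against 6.28 and 6.36 in parthenogenetic cells, where it was not detected, and was at least 6.12-fold higher (adjusted p 1.17e-04). It was also 2.51 higher in Igf2-labelled than in H19-labelled cells (SE 0.07, adjusted p 2.39e-04). Mup genes are near-identical copies, so the member that gives this signal is uncertain. Atp1b2, a subunit of the sodium pump, had 8.27 and 8.29 in Igf2-labelled cells, against 6.45 and 6.36 in parthenogenetic cells without detection, at least 3.37-fold higher (adjusted p 1.79e-04). It was lower by 0.77 than in H19-labelled cells (adjusted p 0.00177). Mup2 and Atp1b2 entered the test against parthenogenetic cells only through the Igf2-labelled arrays, where they are high. Krtdap, a keratinocyte protein (1.5, adjusted p 0.006), Aldh3a1, an aldehyde dehydrogenase (1.45, adjusted p 0.00196), Mapt, the microtubule protein tau (1.39, adjusted p 0.00148), and Ampd1, an AMP deaminase (1.23, adjusted p 0.00445), were the others not described above. Aldh3a1 was detected on only 1 parthenogenetic array, so the size of its rise is uncertain. The call of Krtdap was lost without parthenogenetic array 1 (adjusted p 0.0508).

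Among the falls, Rasgrp1, an activator of Ras, had levels of 6.2 and 6.09 in Igf2-labelled cells, where it was not detected, against 8.11 and 8.31 in parthenogenetic cells. It was at least 3.13-fold lower (adjusted p 3.21e-04). Nsg2, a neuronal vesicle protein, had 6.59 and 6.57 in Igf2-labelled cells, detected on 1 of them, against 8.41 and 8.43 in parthenogenetic cells, and fell by 1.84 (SE 0.08, adjusted p 2.10e-04). Olig1, a factor of the oligodendrocyte lineage, had 9.10 and 9.12 in Igf2-labelled cells, against 10.80 and 10.78 in parthenogenetic cells, and fell by 1.68 (SE 0.07, adjusted p 2.00e-04). In these 3 genes the groups did not overlap, as the rule that chose them requires. Rasgrp1 and Nsg2 entered the test only through the parthenogenetic arrays, where they are high. Wt1, a zinc finger factor of the kidney and gonad, fell by 1.45 (adjusted p 0.00154), and Nt5e, the ectoenzyme that makes adenosine, fell by 1.36 (adjusted p 0.00101). The other Nt5e probe was not detected in Igf2-labelled cells and was at least 1.67-fold lower (adjusted p 0.0125). Against the H19-labelled cells Olig1 was 1.07 lower (adjusted p 0.00151) and Wt1 1.12 higher (adjusted p 0.00177), while Nt5e did not pass (0.21, adjusted p 0.135).

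Chromosome 6 stood apart from every other chromosome. Of its 437 genes tested, 184 (42.1%) rose and 5 (1.14%) fell, 43.2% in both directions, whereas of 8203 genes elsewhere 703 (8.57%) passed, of which 312 (3.8%) rose and 391 (4.77%) fell. Its median difference was 0.33 (quartiles 0.12 and 0.50), and 85.1% of its genes were higher in Igf2-labelled cells. On the other chromosomes the median was between -0.07 and -0.01, and 38.8% to 48.5% of genes were higher. Per array, the median of chromosome 6 genes relative to the parthenogenetic mean was 0.33 and 0.31 on the Igf2-labelled arrays, 0.42 and 0.40 on the H19-labelled arrays, and 0.00 on both parthenogenetic arrays. The normal arrays read 0.00 and 0.04. The Igf2-labelled and H19-labelled comparisons share the parthenogenetic arrays, and the direct difference between those lines had a median of -0.05 on chromosome 6. DNA copy number was not measured. The count of chromosome 6 genes past the threshold was 43 and 48 without parthenogenetic array 1 or 2, 62 and 45 without Igf2-labelled array 1 or 2, 153 without either H19-labelled array, and 9 with the normal arrays in the fit. The median stayed between 0.31 and 0.35 when 1 array was left out.

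**Figure D4:**
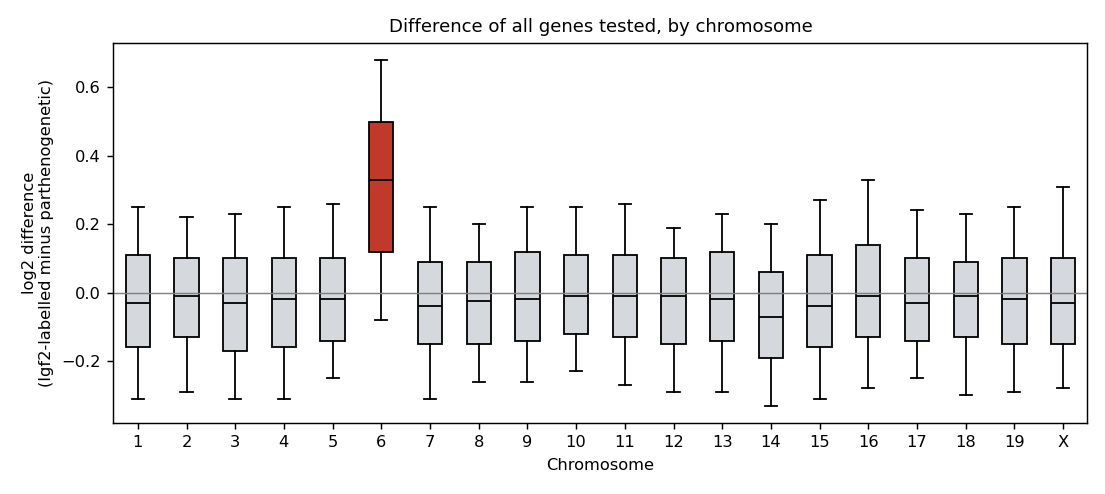
Difference between Igf2-labelled and parthenogenetic arrays on the log2 scale for all genes tested, by chromosome. Boxes span the quartiles with the median as a line, and whiskers reach the 10th and 90th percentiles. The chromosome 6 median is 0.33, and the other medians lie between -0.07 and -0.01.

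The shift ran along the whole chromosome. When its genes were split by order into 10 stretches of 43 or 44 genes, the median difference was between 0.21 and 0.41 in every stretch, and 72.1% to 95.5% of genes in a stretch were higher. The lowest median was in the second stretch, which starts at Irf5 and ends at Epha1, where 8 of 44 genes rose. The highest was in the stretch that starts at Rassf4 and ends at Spsb2, where 25 of 43 genes rose. Split into 3 level classes of all tested genes by mean level, chromosome 6 genes had a median of 0.19 (1.14-fold) in the lowest class, 0.36 (1.28-fold) in the middle and 0.37 (1.29-fold) in the highest, against -0.02 for the other chromosomes in each class.

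**Figure D5:**
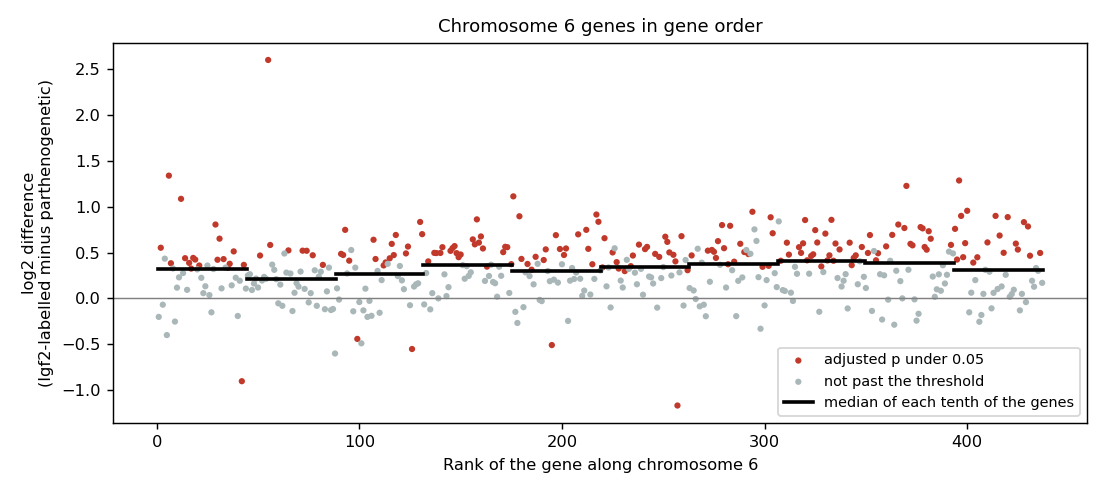
Difference between Igf2-labelled and parthenogenetic arrays on the log2 scale for the 437 tested genes of chromosome 6, ordered by position, with genes past the threshold in red and the median of each of 10 stretches as a black bar. All 10 bars lie above 0, between 0.21 and 0.41, and 5 red points lie below 0.

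Past the threshold, 6 genes of chromosome 6 had a measured difference above 1: Mest, Peg10, Gpr19, Vwf, Reg2 and Slc25a13. Mest, Peg10 and Reg2 were not detected in parthenogenetic cells, and for Peg10 and Reg2 the bound on the fold lies below 2. These genes entered the test only through the Igf2-labelled arrays, where they are high. Gpr19, an orphan receptor, had levels of 11.16 and 11.13 in Igf2-labelled cells, against 9.83 and 9.90 in parthenogenetic cells, and rose by 1.29 (SE 0.08, adjusted p 9.16e-04). Vwf, the von Willebrand clotting factor, had 9.11 and 9.02 in Igf2-labelled cells, against 7.89 and 7.80 in parthenogenetic cells, and rose by 1.23 (SE 0.08, adjusted p 9.77e-04). In both genes the groups did not overlap, as the rule that chose them requires. Reg2, a secreted protein of the pancreas, was not detected in parthenogenetic cells and was at least 1.77-fold higher (adjusted p 0.0027). Slc25a13, the mitochondrial aspartate and glutamate carrier, rose by 1.08 (adjusted p 0.00575), and 1.46 at its second probe. Hebp1, a haem-binding protein, rose by 0.95 and Irak2, a kinase of innate immune signalling, by 0.94.

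The 5 genes of chromosome 6 that fell were led by Trh, the precursor of thyrotropin-releasing hormone, with 11.43 and 11.24 in Igf2-labelled cells, against 12.50 on both parthenogenetic arrays (difference -1.17, SE 0.09, adjusted p 0.0019). Ccdc136 fell by 0.90, Tril, a partner of Toll-like receptors, by 0.55, Actg2, a smooth muscle actin, by 0.51 and Zfp467, a zinc finger protein, by 0.44. Tril was not detected on all 4 arrays of the comparison, so the size of its fall is uncertain. Trh did not differ past the threshold from the H19-labelled cells (0.05, adjusted p 0.712). The calls of Tril and Zfp467 were lost without any 1 of the 6 arrays, that of Hebp1 without either Igf2-labelled array, and those of Ccdc136 and Actg2 without either parthenogenetic array, as well as without Igf2-labelled array 1 for Ccdc136 and array 2 for Actg2 (highest adjusted p 0.169, 0.155, 0.0807, 0.0633 and 0.0696). That of Peg10 was lost without either parthenogenetic array or Igf2-labelled array 2 (highest adjusted p 0.0855).

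Markers of differentiated lineages moved in both directions. Shares that rose and fell were 16.7% and 16.7% for trophectoderm and 7.69% and 23.1% for neural genes. They were 14.3% and 0% for endoderm, 9.09% and 0% for basement membrane, and 5.74% and 4.58% over all genes. Of 12 trophectoderm genes, 2 rose and 2 fell, with a median of 0.12: Gata3 (0.84) and Tead4 (0.76, on chromosome 6), transcription factors of that lineage, rose, and the keratin genes Krt8 (-0.80, adjusted p 0.0027) and Krt18 fell. Gata3 was not detected on all 4 arrays, so the size of its rise is uncertain. Of 13 neural genes, Mapt rose and Nsg2, Olig1 and Map2 (-1.13, adjusted p 0.00487) fell, with a median of -0.19. Of 7 endoderm genes, Sox7, a factor of the primitive endoderm, rose, and it was not detected in parthenogenetic cells (at least 1.38-fold higher). Of 11 basement membrane genes, the laminin chain gene Lama1 rose (0.72, adjusted p 0.00826). The fibroblast genes that fell were S100a4 (-0.46), the collagen cross-linking enzyme gene Lox (-0.42) and the smooth muscle actin gene Acta2 (-0.35), and Col1a1, a main collagen chain, did not pass (-0.35, adjusted p 0.0893). Eif2s3y, a gene of the Y chromosome, was detected on all 4 arrays, with 8.18 and 8.37 in Igf2-labelled cells, against 8.16 and 8.12 in parthenogenetic cells (difference 0.13, adjusted p 0.418). It was 0.86 higher in Igf2-labelled than in H19-labelled cells (adjusted p 0.00235), and it read 10.78 and 10.96 on the normal arrays. Cells with maternal genomes only carry no Y chromosome, and the source of this signal was not tested. The part of the fibroblast genes in the differences reported above was not tested. Calls were lost without any 1 of the 6 arrays for Acta2, without any 1 Igf2-labelled or parthenogenetic array for Krt18, Sox7, S100a4 and Lox, without either Igf2-labelled array or parthenogenetic array 2 for Gata3, and without parthenogenetic array 1 for Lama1 (highest adjusted p 0.139, 0.191, 0.149, 0.0899, 0.0914, 0.0877 and 0.0591).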

How the data were processed

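Per the labels' protocols, RNA of 8 mouse ES cell samples was isolated with Trizol, purified on columns with DNase treatment and labelled as biotinylated cRNA for Illumina arrays. In the main table the authors deposited intensity values for 25697 probes that were not normalized between arrays, each with a detection p-value, per the file headers. A second file, also deposited, holds log2 values of 12690 probes, with every array at a median of 9.55 and a correlation of at least 0.9999 with log2 intensity, used as an alternative. The lowest intensity was 52.07 units, and the sources used here give neither scanning software nor genome build. In all, 0 sample columns were left unassigned.

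All 8 arrays were background corrected and quantile normalized with neqc in limma 3.58.1 (R 4.3.3; offset 16, control values inferred from detection p-values). Both arrays of either group had to have a detection p-value below 0.05 for a probe to be kept, and group means were fitted with lmFit and eBayes to 6 arrays, without the normal ones (3 residual and 3.36 prior degrees of freedom). The Igf2-labelled against H19-labelled contrast came from the same fit and shares the Igf2-labelled arrays with the main contrast. Genes were named for 11960 probes by the platform annotation (11953 matched RefSeq, GRCm38.p6), 855 tested probes had no name, and 1 probe with the highest mean stood for a gene. Other probes were checked, and the second probes that missed the threshold included those of Bbc3, Egln3, Fgf17, Nsdhl, Tbx3 and Pfkp. The step was also run on simulated data with independent errors, which cannot test for shared cultures or for a shift of a whole chromosome.

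Named genes were Igf2, Rhox6, Rhox9, Wnt8a and Sp5, the 12 largest rises and falls outside chromosome 6 and up to 8 each on it whose groups did not overlap, up to 5 called members of each of 27 lists, and up to 3 others per list by level. Impact, Slc38a4, Inpp5f, Myc, Fzd7, Tcf7l1, Nanog, Klf2, Sall2, Fos, Eif2s3y and Col1a1 were named after their values were seen. The members and lists were chosen with earlier results of these data known. Alternatives were other background corrections, scaling, detection filters, the authors' log2 table, other sets of arrays, array weights, another prior, a block for the replicate number and the removal of each array in turn. Replicate numbers came from the titles, with no statement that they mark a shared culture or day.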

Additional observations from a re-analysis of the deposited data

How the results depend on the processing

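The Igf2 difference kept its side of the threshold in every alternative run, between -0.11 and 0.01 when 1 array was left out, with -0.05 under the replicate block. Without 1 array the probes past the threshold numbered 292 to 970, the chromosome 6 genes past it 43 to 153, the chromosome 6 median was 0.31 to 0.35, and the probes past it between Igf2-labelled and H19-labelled arrays numbered 1248 to 2384. With the normal arrays in the fit these counts were 77 (42 higher, 35 lower), 9 and 36, and with a trended and robust prior 2085 probes passed between Igf2-labelled and parthenogenetic arrays. The chromosome 6 median was 0.29 without background correction, with normexp at an offset of 50 and in the authors' log2 table, and 0.35 with arrays centred on genes outside chromosome 6, an alternative chosen after seeing the data. The cause of these changes was not tested. The replicate block gave 1146 probes, 169 chromosome 6 genes, a chromosome 6 median of 0.33 and 2581 probes between Igf2-labelled and H19-labelled arrays. Deviations of same-numbered arrays correlated at 0.11, 0.18 and 0.08, and with 2 numbers this does not establish pairing. Of 113 genes past the threshold that were named, 25 kept their call in all 19 alternatives, 8 kept it in those that tested them but did not enter at least 1, and 0 reversed, and 18 named genes that had not passed did so in at least 1 alternative. Of 513 list medians recomputed, 60 moved and 9 changed sign. The 2 arrays per group and the level of detection limit low genes, whose folds are bounds.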

Other observations

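Genes of hypoxia and glycolysis moved in both directions. Of 24 tested, 3 rose and 7 fell (12.5% and 29.2%, beside 5.74% and 4.58% over all genes). Of the rises, 2 were on chromosome 6, where 42.1% of genes rose. The median difference was -0.21 between Igf2-labelled and parthenogenetic arrays. Egln1 and Egln3, the oxygen-sensing prolyl hydroxylases, had differences of -0.72 (adjusted p 0.0108) and -0.60 (adjusted p 0.00789), and Car9, a carbonic anhydrase induced by low oxygen, had -0.58 (adjusted p 0.0349). Slc2a3, a glucose transporter on chromosome 6, rose by 0.60 (adjusted p 0.00668), as did Pfkp, a phosphofructokinase, by 0.57 (adjusted p 0.0149). Gapdh (-0.01, adjusted p 0.922) and Pkm (0.00, adjusted p 0.992) did not pass. The second probes of Egln3 (-0.37, adjusted p 0.404) and Pfkp missed the threshold. Calls were lost without any 1 of the 6 arrays for Car9, without any 1 Igf2-labelled or parthenogenetic array for Egln1 and Pfkp, and without parthenogenetic array 1 or Igf2-labelled array 2 for Egln3 (highest adjusted p 0.153, 0.0684, 0.0823 and 0.0573).

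Of 18 genes of cholesterol synthesis, 5 fell (27.8%, beside 4.58% over all genes) and 0 rose, with a median of -0.23. They were Dhcr7 (-0.50), Nsdhl (-0.46), Fdps (-0.38), Stard4 (-0.34) and Cyp51 (-0.33). Hmgcs1 (-0.10, adjusted p 0.4) and Sqle (-0.15, adjusted p 0.318) did not pass. Each of the 5 calls was lost without any 1 Igf2-labelled or parthenogenetic array, and those of Fdps, Stard4 and Cyp51 also without either H19-labelled array (highest adjusted p 0.077, 0.176, 0.152, 0.16 and 0.163). Of 23 genes of the endoplasmic reticulum and amino acid stress responses, 2 rose and 2 fell, with a median of 0.16: Pdia4 (0.75, adjusted p 0.00512) and Asns (0.39), both on chromosome 6, rose, and Chac1 (-0.98, adjusted p 0.00652), a glutathione-degrading enzyme, and Phgdh (-0.32), of serine synthesis, fell. The shares of this list were 8.7% higher and 8.7% lower, beside 5.74% and 4.58% over all genes. On chromosome 6, which held both rises, 42.1% of genes rose. The calls of Asns and Phgdh were lost without any 1 of the 6 arrays (highest adjusted p 0.119 and 0.161).

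Counts in the next lists were small, with 5.74% of all genes higher and 4.58% lower. Of 24 cell cycle genes, 1 rose (4.17%), Mcm2 (0.59, adjusted p 0.00742), a helicase subunit on chromosome 6, with a list median of -0.03. Its call was lost without parthenogenetic array 2 or Igf2-labelled array 2 (highest adjusted p 0.0541). Of 19 p53 target genes, Plk2 (-0.46) and Bbc3 (-0.37) fell, with a median of -0.08, and the other Bbc3 probes did not pass (-0.28 and 0.26). The p53 falls were 10.5% of that list. Of 25 interferon response genes, Gbp2 (-0.40) and Isg15 (-0.34) fell (8%), with a median of -0.09. Of 12 genes of DNA methylation Dnmt3l and Nlrp14 rose (16.7%) and Dnmt3b fell (8.33%), with a median of -0.03. Dnmt1 (-0.06, adjusted p 0.678) and Uhrf1 (0.20, adjusted p 0.124) did not pass. Of 9 genes of the sex chromosomes, 0 passed by limma and 0 had an unadjusted p below 0.05, with a median of 0.13. Calls were lost without any 1 of the 6 arrays for Bbc3, Isg15 and Dnmt3l, without any array of the fit other than Igf2-labelled array 1 for Plk2, without any 1 Igf2-labelled or parthenogenetic array for Gbp2 and Dnmt3b, and without parthenogenetic array 1 or either Igf2-labelled array for Nlrp14 (highest adjusted p 0.11, 0.131, 0.159, 0.14, 0.121, 0.0633 and 0.0789).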
